A study of Mus musculus with 12 samples.

Results

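Serotonin receptors were followed through 10 genes, Htr1a, Htr1b, Htr1d, Htr2a, Htr2c, Htr3a, Htr4, Htr5a, Htr6 and Htr7, in the hypothalamus of mice that drank alcohol from adolescence into adulthood. The members were all probes on the array whose gene name in the scanner files was 1 of these symbols. They came to 13 probes among 41174, and to 10 genes among 27827 names. Htr2c had 3 probes, Htr4 had 2 and each other gene had 1.

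Serotonin is made by neurons of the raphe nuclei in the brainstem, whose axons reach the hypothalamus, and it acts there on feeding, body temperature, daily rhythm and the stress axis. Its receptors fall into families that differ in what they do to a cell. The Htr1 and Htr5 families couple to inhibitory Gi/o proteins, the Htr2 family couples to Gq and calcium release, Htr4, Htr6 and Htr7 couple to Gs and raise cyclic AMP, and Htr3a forms a cation channel.

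All mice were male ICR, an outbred strain, and were 3 weeks old when they were housed with a pair of drinking tubes that held water until day 5. Water-only mice kept water in both tubes, while alcohol mice had 1 tube of 5% or 10% alcohol beside 1 tube of water. The sample labels place death on day 51 and the series text on day 57. Each array held pooled hypothalamic RNA of 1 to 3 mice, and the labels name 3 arrays each of water mice, low alcohol drinkers, early high alcohol drinkers and late high alcohol drinkers. Which pools drank the 5% solution is not in the labels. Arrays of a group are separate pools, so that the spread between them mixes animals and technique.

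The values are log2 signal intensities from which the log2 75th percentile of the array was subtracted, so that a difference of 1 stands for a factor of 2. This 75th percentile lay between 1512 and 1853, and between 67.0% and 79.3% of 43379 spots were well above background. The 12 arrays sat on 3 slides of 4, and slide 1 was scanned on a different day from slides 2 and 3. Slide 1 held the 3 water arrays and low drinker 1, slide 2 held low drinkers 2 and 3 with early high drinkers 1 and 2, and slide 3 held early high drinker 3 with the 3 late high drinkers. Slide and group can therefore not be told apart except where low and water shared slide 1, early high and low shared slide 2, and late and early high shared slide 3. In low drinker 2 the lower quartile of the signal was 63.2, against 22.3 to 34.0 on the other 11 arrays. Hypothalamic markers were present, since 11 of 12 listed genes, such as Hcrt (orexin), Pmch (melanin-concentrating hormone) and Avp (vasopressin), were well above background on all 12 arrays, and Sim1 was on 11. The raphe enzyme Tph2, which makes serotonin, was well above background on 2 arrays and the serotonin transporter Slc6a4 on 1. Fev, the other listed marker of raphe serotonin neurons, was so on all 12 arrays.

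The probes are 60 bases long and their positions are those of build mm9 in the array files. The sequences below are shown because the values of Htr1b, Htr5a and Htr2c carry the results that follow. The Htr1b probe lies at chr9:81525015-81525074 on the minus strand and is given whole. The Htr5a probe lies at chr5:28168974-28169033 on the plus strand and is given from its base 16, where the capitals mark an ATG that opens a reading frame with no stop in the probe. The Htr2c probes lie on the plus strand of the X chromosome, at chrX:143629642-143629702 (upstream probe), chrX:143631138-143631197 (downstream probe) and chrX:143511858-143511917 (cDNA probe, designed on another transcript sequence), and their first 30 bases are given. Gene structure in mm9 was not used here, so the exon or UTR under each Htr2c probe is not stated.
Htr1b: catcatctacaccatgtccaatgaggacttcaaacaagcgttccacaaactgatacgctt
Htr5a: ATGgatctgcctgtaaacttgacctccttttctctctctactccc
Htr2c upstream probe: ctgctcattcacacacgtaaactcagtaag
Htr2c downstream probe: ccgtatcgatgtaaggcagagaaactgata
Htr2c cDNA probe: aacaagttctccaaatgcataatggaattg

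The other receptors were measured at chr13:106237236-106237295 for Htr1a, chr4:135998963-135999022 for Htr1d, chr9:48707582-48707641 for Htr3a, chr4:138617683-138617742 for Htr6 and chr19:36034764-36034823 for Htr7. The Htr2a probe covers 60466 bases of the genome, chr14:75044950-75105415, and so crosses an intron. The main Htr4 probe likewise covers 9266 bases of chromosome 18. Of the 13 probes, 11 had an accession in the RefSeq gene table of GRCm38.p6, and all 11 carried the same symbol there.

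The probes differed in how often they were well above background. Htr1a, Htr3a, Htr5a, Htr7 and the upstream and downstream probes of Htr2c were so on all 12 arrays. Htr1b missed it on low drinker 2 alone and Htr6 on low drinker 3 alone. Htr1d was well above background on 6 arrays, none of them low drinkers, Htr4 on 3, none of them water, and Htr2a on 2, water 3 and late high drinker 1. The second Htr4 probe was so on 0 arrays. The cDNA probe of Htr2c was well above background on low drinker 3 alone, with a signal of 104.9 there, the highest of the 12 arrays, and 5.05 on the lowest.

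**Figure D1:**
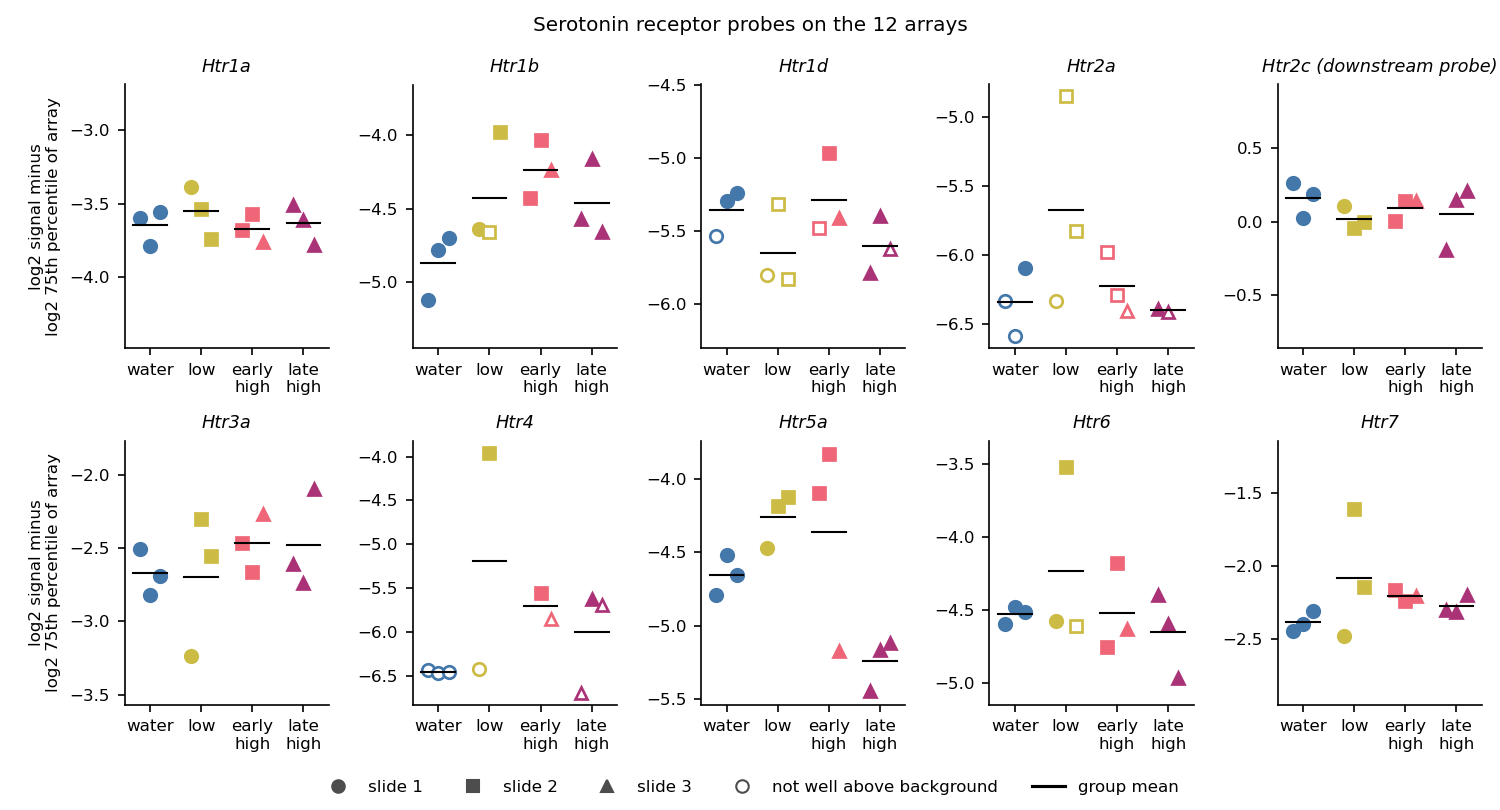
Each point is 1 array: log2 signal minus the log2 75th percentile of its array (vertical axis) for the probe that stands for each receptor, by group (horizontal axis), with symbols for the slide, open symbols for arrays not well above background, and black bars for group means; arrays without a value are not drawn. Htr1b lies higher on all 9 alcohol arrays than on the 3 water arrays, and Htr5a is lowest on the 4 arrays of slide 3.

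In alcohol against water (9 arrays against 3), 1 of 11 member probes tested, that of Htr1b, had an unadjusted p under 0.05 in limma, where 5.53% of 32376 probes did. None passed a Benjamini-Hochberg adjusted p of 0.05, as 0 of all probes (0.0%) did, and 1789 probes had an unadjusted p under 0.05. The methods' t-test gave 1688 such probes and 0 after adjustment. Of the 1789 probes 1246 were higher and 543 lower with alcohol, where quantile normalization gave 996 higher and 987 lower and no scaling 1326 and 309. Of the 9 receptors well above background on at least 1 array of both sides, 7 were higher in mean with alcohol, as were 59.6% of all probes, and their median change was 0.06 against 0.03 over all probes. With quantile normalization 3 of the 9 were higher, as were 45.9% of all probes.

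In high against low drinkers (6 against 3), 1 of 11 member probes, the upstream one of Htr2c, had an unadjusted p under 0.05, where 15.5% of 32250 probes did. None passed adjustment, where 0.0744% did. Of all probes with an unadjusted p under 0.05, 1064 were higher and 3942 lower in high drinkers, while quantile normalization gave 2790 and 2214 and no scaling 3341 and 1803. Of 8 receptors measured on both sides 5 were lower in mean in high drinkers, as were 65.6% of all probes, with a median of -0.13 against -0.06 over all probes. With quantile normalization or no scaling 4 of the 8 were lower, beside 48.4% and 35.4% of all probes. In late against early high drinkers (3 against 3), 2 of 11 member probes had an unadjusted p under 0.05, those of Htr5a and the upstream one of Htr2c, where 12.1% of 33141 probes did. None passed adjustment, nor did any probe (0.0%), while 4025 probes had an unadjusted p under 0.05 and the methods' t-test gave 3902, with 0 after adjustment. Of the 4025 probes 1373 were higher and 2652 lower in late high drinkers, while quantile normalization gave 1725 and 1999 and no scaling 4334 and 914. With no scaling the median over all probes moved from -0.03 to 0.12 here and from -0.06 to 0.07 in high against low, so the receptor differences are relative to the scaling. Of 9 receptors measured on both sides 8 were lower in mean in late high drinkers, as were 57.6% of all probes, with a median of -0.13 against -0.03 over all probes. With quantile normalization 6 of the 9 were lower and with no scaling 4, beside 47.7% and 28.8% of all probes. Over the 4 groups together the F test gave an unadjusted p under 0.05 for the same 2 probes, where 14.4% of 31622 probes did, and an adjusted p under 0.05 for none, where 0.00632% did. These comparisons share arrays, since the high and low drinkers are also the alcohol arrays. The shares of members are near the background in alcohol against water, high against low and late against early, and nothing about receptors as a group follows from these counts.

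**Figure D2:**
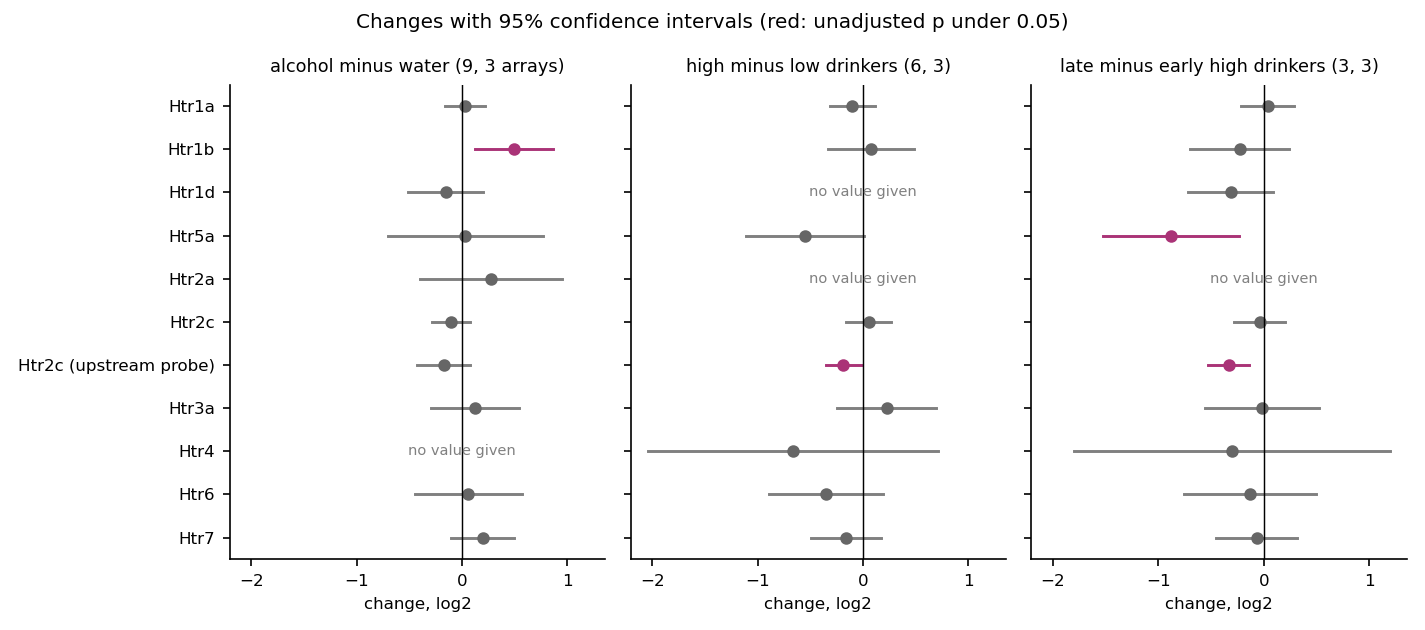
Points are differences on the log2 scale and bars their 95% confidence intervals from limma, for alcohol minus water, high minus low drinkers and late minus early high drinkers, with no value where a side had no array well above background. The Htr1b interval for alcohol minus water runs from 0.13 to 0.86, and those of the upstream Htr2c probe and of Htr5a for late minus early lie below 0.

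Htr1a encodes an inhibitory receptor that raphe neurons also carry as an autoreceptor. Its water arrays were at -3.60, -3.79 and -3.56, low drinkers at -3.38, -3.54 and -3.74, early high drinkers at -3.68, -3.57 and -3.76, and late high drinkers at -3.51, -3.61 and -3.78. All 4 groups overlapped. The change with alcohol was 0.03 ± 0.09 (SE), with a 95% confidence interval of -0.16 to 0.22, a factor between 0.893 and 1.17. Its range over the 12 arrays, 0.40, was the smallest of the receptors with a value on every array, and 40.1% of probes had a smaller one.

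Htr1b encodes an inhibitory receptor of axon endings that lowers transmitter release. The water arrays were at -5.13, -4.78 and -4.70, the low drinkers at -4.64, -4.66 and -3.98, the early high drinkers at -4.43, -4.04 and -4.24, and the late high drinkers at -4.57, -4.16 and -4.66. Every alcohol array lay above every water array, the nearest being 1 late and 1 low drinker array at -4.66 and water 3 at -4.70. Of 29521 probes with a value on all 12 arrays, 290 (0.982%) had this order.

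In water the mean of Htr1b was -4.87 ± 0.23 (SD, n = 3), and over the alcohol arrays it was -4.38 ± 0.28 (SD, n = 9), a difference of 0.49 ± 0.17 (SE) or 1.41-fold. The unadjusted p was 0.0129 and the adjusted p 0.819 in limma. The exact permutation test over all 220 ways to draw 3 of 12 arrays gave a two-sided p of 0.00909, the smallest it can give. By group, the order from the highest mean was early high, low, late high and water. Of neighbors in this order late high and water did not overlap, while early high overlapped low and low overlapped late high. Within slide 1, the single low drinker array was 0.23 above the water mean, which is also the change when slide was a fixed block (unadjusted p = 0.455 in limma). Early high minus low was 0.09 within slide 2 and late minus early high was -0.22 within slide 3. Without water 1 the change was 0.37 with an unadjusted p of 0.0848, so that this array decides whether the unadjusted p is under 0.05. Quantile normalization brought the change to 0.24, with an unadjusted p of 0.48, and normexp background correction brought it to 0.25, with an unadjusted p of 0.0522. Over all alternatives the adjusted p lay between 0.496 and 1. The mean level of the 12 hypothalamic markers was between 1.25 and 1.32 on the water arrays and between 1.29 and 1.58 on the alcohol arrays, and its part in the Htr1b difference was not tested.

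Among drinkers, Htr1b differed by 0.08 between high and low (95% confidence interval -0.33 to 0.49) and by -0.23 between late and early (-0.70 to 0.24), with overlapping groups in both. The latter was -0.13 without early high drinker 2 or late high drinker 3 and -0.38 without late high drinker 2.

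Htr1d, a further inhibitory receptor of axon endings, was well above background on only 6 arrays. Its values were -5.53, -5.29 and -5.24 in water, -5.80, -5.32 and -5.83 in low, -5.48, -4.97 and -5.41 in early high and -5.79, -5.40 and -5.62 in late high drinkers. The groups overlapped. The change with alcohol was -0.16 ± 0.16 (SE), and it was -0.25 without water 1, -0.0981 without water 3 and -0.51 with quantile normalization. The low drinkers were not well above background, so the ratio of the means of high and low drinkers, 1.15 for the signals as they stood, is no measured difference. The fitted interval, 0.905 to 1.47, spans 1, with an adjusted p of 0.524 in limma, so a difference was not shown.

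Htr5a encodes an inhibitory receptor found mainly in the brain. Its values were -4.79, -4.52 and -4.66 in water, -4.47, -4.18 and -4.12 in low drinkers, -4.09, -3.83 and -5.17 in early high drinkers and -5.45, -5.16 and -5.12 in late high drinkers. The late high drinkers lay below all water and low arrays, while the early high group was split, with its array 3 among the late ones. Its range over the arrays, 1.62, was the widest of the receptors with a value on every array, and 90.2% of probes had a smaller one.

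Late high drinkers had a mean Htr5a value of -5.24 ± 0.18 (SD, n = 3) and early high drinkers of -4.37 ± 0.71 (SD, n = 3). The difference was -0.88 ± 0.29 (SE), or 0.544-fold, with an unadjusted p of 0.0129 and an adjusted p of 0.335 in limma. The exact permutation test gave p = 0.3 (two-sided), where 0.1 is the smallest that 3 against 3 allows. Without early high drinker 3 the difference was -1.28 with an adjusted p of 0.0173. The early arrays are then all on slide 2 and the late ones on slide 3, so slide and group cannot be told apart there. In that setting the late against early comparison had 194 of 30959 probes past adjustment, against 0 with all arrays. The mean of the 9 alcohol arrays differed from water by 0.03 ± 0.34 (SE), with an interval of -0.70 to 0.77, and high from low drinkers by -0.55 ± 0.25 (SE), with an unadjusted p of 0.0542. This last value was -0.345 without early high drinker 3 (unadjusted p = 0.0187 in limma), -0.68 without early high drinker 2 (0.0137) and -0.61 without early high drinker 1 (0.0447), and no adjusted p was under 0.05.

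The values of Htr5a followed the slides. Slide 1 had a mean of -4.61 ± 0.14 (SD, n = 4), slide 2 of -4.06 ± 0.16 (SD, n = 4) and slide 3 of -5.23 ± 0.15 (SD, n = 4), and the 3 slides did not overlap. Early high drinker 3, on slide 3, differed from the mean of the early high drinkers on slide 2 by -1.21. Within slide 3 the late arrays differed from early high drinker 3 by -0.07, and a fit in which slide was a fixed block gave the same -0.07 with an unadjusted p of 0.679. Within slide 2 early high and low drinkers differed by 0.19, and within slide 1 low drinker 1 and water by 0.19.

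An F test over the 3 slides, added after these values were seen, gave an unadjusted p under 0.05 for 4 of 10 member probes, those of Htr1b, Htr5a, Htr7 and the upstream one of Htr2c, where 28.3% of 30917 probes had one. It gave an adjusted p under 0.05 for 2 of 10, Htr5a (0.000295) and the upstream Htr2c probe (0.0443), where 8.17% of probes passed.

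Among markers of pituitary, thalamus and striatum, none had an adjusted p under 0.05 in limma in late against early high drinkers. Of all probes, 12.1% had an unadjusted p under 0.05 there. Of 5 pituitary genes 2 had an unadjusted p under 0.05, Cga (late minus early 1.76) and Tshb (1.39). The mean level of the 3 that were well above background on all 12 arrays was -1.02 to -0.34 in late and -2.58 to -1.09 in early high drinkers, which did not overlap. Lhb, the remaining gene in this mean, went the other way (-0.21), and no share of all probes was computed for such a mean. Of 7 thalamic genes 1 had an unadjusted p under 0.05, Tcf7l2 (0.78), with a mean level of 0.22 to 1.24 in late and -0.33 to 0.82 in early high drinkers. In high against low drinkers 4 of 5 pituitary genes had an unadjusted p under 0.05, where 15.5% of all probes did, and were lower in high drinkers. The part of such tissue in the Htr5a and Htr2c values was not tested.

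**Figure D3:**
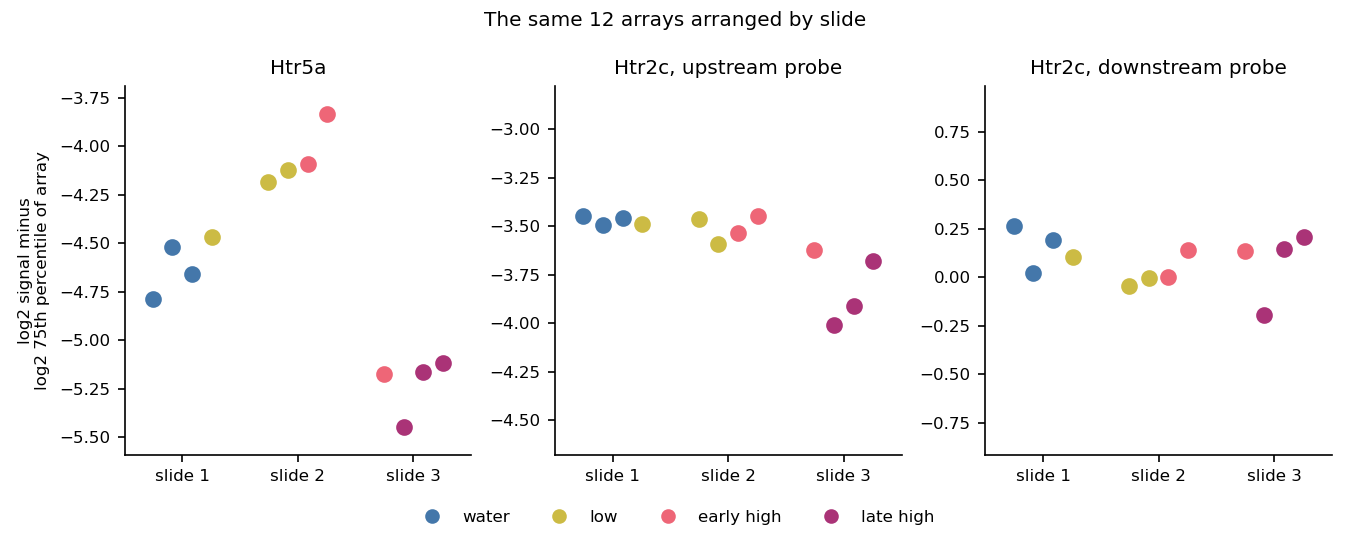
The 12 arrays by slide (horizontal axis), colored by group, for Htr5a and for the upstream and downstream probes of Htr2c, as log2 signal minus the log2 75th percentile of the array (vertical axis, the same span in each panel). Htr5a separates into 3 levels by slide, with early high drinker 3 at -5.17 among the late arrays at -5.45 to -5.12.

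Htr2a encodes an excitatory Gq-coupled receptor. Its probe was well above background on 2 arrays, so that most values are bounds. They were -6.33, -6.59 and -6.09 in water, -6.33, -4.85 and -5.82 in low, and -5.98, -6.28 and -6.41 in early high drinkers, and -6.39 and -6.41 in the late high drinkers 1 and 2. Late high drinker 3 had no value and was left out of the fit. Low drinker 2 was the highest array, and all groups overlapped with their neighbors in order. The change with alcohol was 0.28 ± 0.30 (SE), and it was 0.105 without low drinker 2 and 0.15 without water 2. No fold is given between drinker groups, since neither the low nor the early high arrays were well above background.

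Htr2c encodes the Gq-coupled receptor through which serotonin acts on the Pomc neurons of the hypothalamus that curb feeding. The downstream probe had the highest mean signal of its 3 probes and stands for the gene. Its values were 0.26, 0.02 and 0.19 in water, 0.10, -0.05 and -0.01 in low, 0.002, 0.14 and 0.14 in early high, and -0.19, 0.15 and 0.21 in late high drinkers. All groups overlapped. Its change with alcohol was -0.10 ± 0.08 (SE), between a factor of 0.819 and 1.06, and it was -0.0515 without water 1 and -0.17 without water 2. High and low drinkers differed by 0.06, with an unadjusted p of 0.569 in limma, and late and early high drinkers by -0.04, between a factor of 0.821 and 1.15.

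The upstream Htr2c probe starts 1496 bases before the downstream one and gave another picture. It was at -3.45, -3.49 and -3.46 in water, -3.49, -3.46 and -3.59 in low, -3.54, -3.45 and -3.62 in early high, and -4.01, -3.91 and -3.68 in late high drinkers. The 3 late high arrays lay below the other 9. The share of all probes with this order was not computed. For the looser order of every late array below every early one, it was 4049 (13.3%) of 30554 probes with a value on all high drinker arrays.

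For this probe late high drinkers had a mean of -3.87 ± 0.17 (SD, n = 3) and early high drinkers of -3.53 ± 0.09 (SD, n = 3). The difference was -0.33 ± 0.09 (SE) or 0.795-fold, with an unadjusted p of 0.0037 and an adjusted p of 0.324 in limma. The exact permutation test gave p = 0.1 (two-sided), its smallest value. Late against low drinkers differed by -0.35 ± 0.09 (SE), adjusted p = 0.0708 in limma. High against low drinkers, which take in the late arrays, differed by -0.19 ± 0.08 (SE), with an unadjusted p of 0.0344 and an adjusted p of 0.286. Within slide 3 the late arrays differed from early high drinker 3 by -0.24, and the fit with slide as a fixed block gave the same -0.24 with an unadjusted p of 0.0977. Low drinker 1 differed from water by -0.02 within slide 1, and early high from low by 0.04 within slide 2. Without any scaling between arrays the late against early difference was -0.18, with an unadjusted p of 0.165.

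Over the 12 arrays the upstream and downstream Htr2c values had a Pearson r of 0.401, and of 0.668 after the slide means were taken off, as a description of arrays that share slides. With the values of a gene averaged over its probes, Htr2c no longer had an unadjusted p under 0.05 in late against early. Choroid plexus, whose cells carry Htr2c, was represented by 8 markers, 5 of them well above background on all 12 arrays, at a mean level of -3.25 to -2.34 in water, -2.86 to -2.42 in low, -3.37 to -3.08 in early high and -3.22 to -2.78 in late high drinkers. Its secreted protein Ttr was well above background on 11 arrays. The part of such cells in the Htr2c values was not tested, and in bulk tissue fewer cells and less RNA per cell cannot be told apart.

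Htr3a encodes the subunit that every serotonin-gated channel needs. It was at -2.50, -2.82 and -2.69 in water, -3.24, -2.30 and -2.56 in low, -2.47, -2.66 and -2.27 in early high, and -2.61, -2.74 and -2.10 in late high drinkers. Low drinker 1 was the lowest array, late high drinker 3 the highest, and all groups overlapped. The change with alcohol was 0.13 ± 0.19 (SE), between a factor of 0.816 and 1.46, and leaving out 1 array moved it between 0.0502 (without water 2) and 0.21 (without low drinker 1). When slide was a fixed block it became -0.56, which is the difference between low drinker 1 and the 3 water arrays on slide 1.

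Htr4, a Gs-coupled receptor, had values of -6.43, -6.47 and -6.45 in water, none of them well above background. Low drinkers 1 and 2 were at -6.42 and -3.96, early high drinkers 2 and 3 at -5.56 and -5.85, and late high drinkers at -6.69, -5.62 and -5.69, while low drinker 3 and early high drinker 1 had no value. With water not well above background, no measured ratio of alcohol to water is given. The signals as they stood had a ratio of 1.66 over all 9 alcohol arrays, which takes in the unfiltered signal of the 2 set to missing. This ratio rests in part on low drinker 2, which stood far above the others, since the 6 other alcohol arrays with a value gave a ratio of 1.39. The arrays overlapped, late high drinker 1 lay below all 3 water arrays, and the fitted ratio had a 95% confidence interval of 0.811 to 3.57 that spans 1, with an adjusted p of 0.819 in limma. A difference from water was therefore not shown. High and low drinkers differed by -0.66 ± 0.59 (SE) with 2 low arrays, and without low drinker 2 the high arrays were 0.54 above the 1 low array left, so that the direction turns on that array. Late and early high drinkers differed by -0.30 ± 0.64 (SE), with overlapping groups.

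Htr6, a Gs-coupled receptor of neuronal cilia, was at -4.59, -4.48 and -4.51 in water, -4.58, -3.53 and -4.61 in low, -4.75, -4.18 and -4.63 in early high, and -4.40, -4.59 and -4.96 in late high drinkers. Low drinker 2 was the highest array. The change with alcohol was 0.06 ± 0.23 (SE), between a factor of 0.732 and 1.48, and high and low drinkers differed by -0.35 ± 0.24 (SE). Without low drinker 2 this last difference was 0.0061, so that it rests on that array.

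Htr7, a Gs-coupled receptor known in the hypothalamus for its part in daily rhythm and temperature control, was at -2.44, -2.39 and -2.31 in water, -2.48, -1.61 and -2.14 in low, -2.16, -2.24 and -2.20 in early high, and -2.30, -2.31 and -2.19 in late high drinkers. Of the 9 alcohol arrays 8 lay above the water mean, and low drinker 2 was again the highest. The change with alcohol was 0.20 ± 0.14 (SE) or 1.15-fold, between 0.933 and 1.41, and it was 0.126 without low drinker 2. The unadjusted p was 0.174 in limma, with an exact permutation p of 0.0909 (two-sided, 9 arrays against 3). Low drinker 1, beside water on slide 1, differed from the water mean by -0.10.

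In the order of the 4 group means, neighboring groups failed to overlap for 3 of the 11 receptor probes tested, where 23.6% of 31622 probes had at least 1 such pair, so the receptors are near the background. These were late high above water for Htr1b, water above late high for Htr5a, and early above late high for the upstream probe of Htr2c. Across arrays, the receptor pairs with the highest and lowest Pearson r over 12 arrays were Htr6 with Htr7 (0.677) and Htr1a with Htr3a (-0.58). After slide means were removed these were 0.676 and -0.54. Without low drinker 2, the highest array for both Htr6 and Htr7 and left out here after the values were seen, their r was -0.267, so that this value rests on that array, while Htr1a with Htr3a was at -0.696. The highest pair was then Htr3a with Htr7 (0.689).

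The 4 remaining receptors of the family on the list, Htr1f, Htr2b, Htr3b and Htr5b, were each well above background on fewer than 12 arrays. Htr3b, a partner of Htr3a in the channel, was well above background on 3 arrays, all of high drinkers, and on 0 water arrays. Its unadjusted p in alcohol against water was under 0.05 (adjusted p = 0.819 in limma), but with the water side at background no difference is given. Htr2b was not tested for want of values.

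Of 8 genes for serotonin synthesis, transport and breakdown, 1 had an unadjusted p under 0.05 in alcohol against water, where 5.53% of all probes did (Tph2, well above background on 2 high drinker arrays and 0 water arrays, so that no difference is given), 1 in high against low drinkers, where 15.5% did (Tph1, a difference of -0.57), and 2 in late against early, where 12.1% did (Ddc and Fev). None had an adjusted p under 0.05. Ddc, which makes both serotonin and dopamine, differed by -0.32 ± 0.14 (SE).

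Fev, the transcription factor that marks serotonin neurons, was at -4.22, -4.29 and -4.31 in water, -4.37, -3.34 and -3.86 in low, -3.49, -3.45 and -2.79 in early high and -4.70, -4.62 and -4.71 in late high drinkers. The late arrays lay below the other 9, and early high drinker 3, on the same slide, was the highest of the 12. Of 30554 probes, 13.3% had every late array below every early one, and the share for the order over all 12 arrays was not computed. Late and early high drinkers differed by -1.43 ± 0.25 (SE), with an unadjusted p of 0.000195 and an adjusted p of 0.272 in limma, and within slide 3 by -1.89. Tph2 and Slc6a4, the other markers of serotonin neurons, were well above background on 2 arrays and 1.

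The signaling partners were well above background on all 12 arrays, which held for 8 Gi/o and GIRK channel genes, 6 Gq genes, 4 Gs genes and 9 receptor partners, editing enzymes and regulators. In alcohol against water 1 of these 27 genes had an unadjusted p under 0.05, where 5.53% of all probes did, and none an adjusted p under 0.05. This was Plcb4, a phospholipase C downstream of Gq, higher by 0.26 ± 0.12 (SE). In high against low drinkers, where 15.5% of all probes did, it was 1 gene, Gnai1, an inhibitory G protein subunit, higher by 0.27 ± 0.06 (SE), with an adjusted p of 0.124 in limma. In late against early high drinkers, where 12.1% of all probes did, it was 2 genes, Gnai2 (-0.23 ± 0.07, SE) and Gnao1 (-0.13 ± 0.05, SE), again with none adjusted. No gene of the Gs list or of the receptor partners, such as S100a10 and the editing enzymes Adar and Adarb1, had an unadjusted p under 0.05 in any of the 3 comparisons by this measure. All counts of these lists rest on the probe with the highest mean of each gene, and other probes were not read. Gnas had 8 probes, and the study itself reported lower Gnas with alcohol, on its arrays and by RT-PCR.

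**Figure D4:**
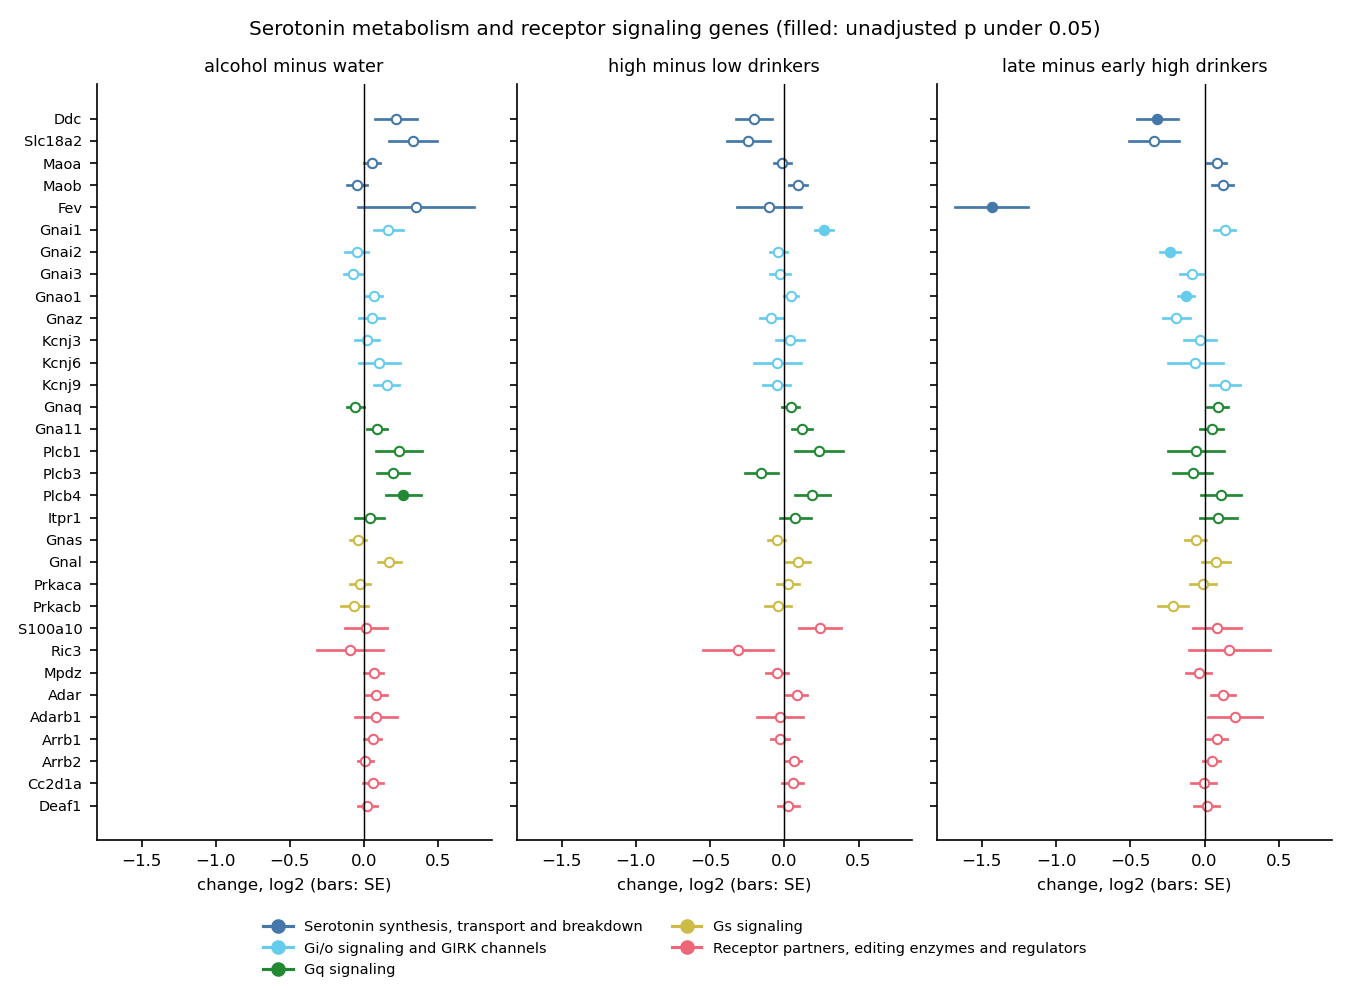
Differences on the log2 scale (horizontal axis, bars give the SE) for the listed serotonin metabolism and signaling genes that were well above background on all 12 arrays, for the same 3 comparisons. Filled points mark an unadjusted p under 0.05, and the largest is Fev at -1.43 in late minus early high drinkers.

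The genes whose values over the 12 arrays were most like those of a receptor were sought among 18999 probes well above background on all arrays. For Htr5a these were Guca2a (Pearson r = 0.98) and Ggn (0.976), and after slide means were removed r was 0.661 and 0.672. For Htr7 they were Tbp (0.979) and Ttll13 (0.973), with 0.96 and 0.97 after removal of slide means, and for Htr6 they were Retn (0.944) and Atg9b (0.924). Without low drinker 2 these were 0.939 and 0.93 for Htr7 and 0.794 and 0.704 for Htr6. For Htr1b they were Arhgdib (0.849) and 2610034B18Rik (0.847), and for the downstream probe of Htr2c they were Fcgr1 (0.869) and Kcnab3 (0.851). The highest of so many values over 12 arrays is a description of these arrays.

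**Figure D5:**
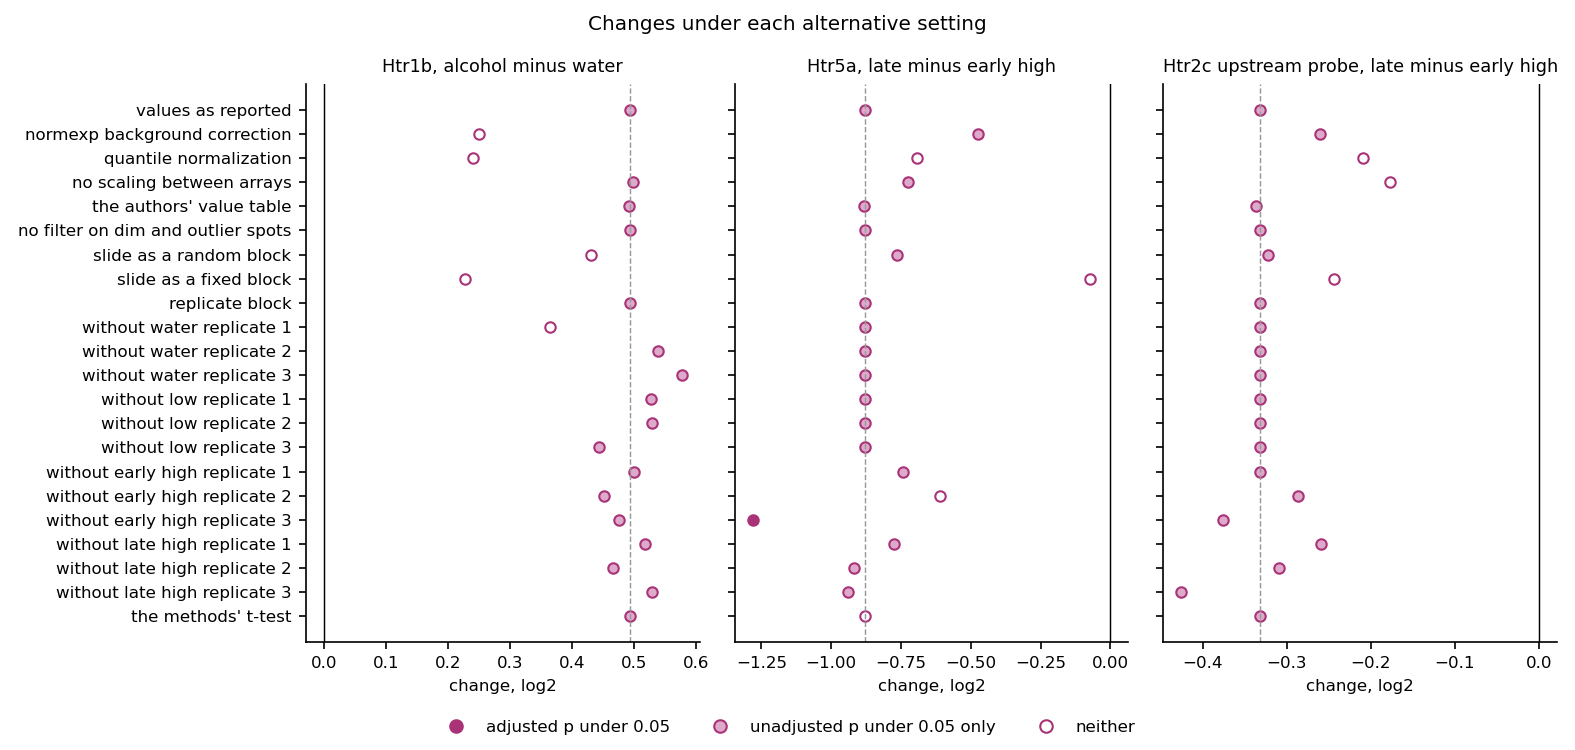
Each point is the difference on the log2 scale (horizontal axis) under 1 alternative setting (vertical axis) for Htr1b in alcohol minus water and for Htr5a and the upstream Htr2c probe in late minus early high drinkers, with a dashed line at the reported value. Among these points an adjusted p under 0.05 occurs once, for Htr5a without early high replicate 3, where late and early arrays share no slide. Htr5a comes nearest to 0 with slide as a fixed block.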

How the data were processed

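Hypothalamic RNA pools were measured on 12 one-color Agilent arrays. The deposited scanner files hold the signal intensity of each spot, made linear and background-corrected by the authors with Feature Extraction 10.5.1.1 on mm9 positions, before arrays were scaled to each other. A table of intensity per probe that the authors deposited served as an alternative. Spots marked as non-uniform, or whose signal/noise ratio fell below 2, were treated as missing, after the study's methods. Intensities were taken to log2, the 75th percentile of each array was subtracted, repeated spots were averaged per probe, and tests were limited to probes measured on over 50% of the arrays of each side, group or slide compared. limma 3.58.1 in R 4.3.3 gave differences and Benjamini-Hochberg adjusted p-values over all probes. Alcohol against water used a 2-group fit and the other comparisons a fit of all 4 groups. Single receptors were also tested by exact permutation (scipy 1.17.1). No fold is given for a side without an array well above background, except the ratio of signals as they stood for Htr1d and Htr4. There, values under the lowest signal well above background would have been raised to it, but none lay under it.

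The members and gene lists were chosen with earlier results of these data known. Genes were named as members or as listed genes, by the probe with the highest mean. Values of 2 arrays were never identical. The number of arrays, 3 per group, limits the precision. Alternatives covered background correction, scaling, filters, slide and replicate blocks, each array left out, probes averaged per gene and the methods' t-test. The steps were tested on simulated data. Figures were drawn with matplotlib 3.10.9.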

Additional observations from a re-analysis of the deposited data

Results flagged for a closer look

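Among 12 receptor probes tested for an array far from the rest of the alcohol arrays, 3 had one. The rule has a nominal rate of about 1 in 20, but the share over all probes was not computed, so the count is no result about receptors. All 3 were low drinker 2. For Htr7 this array stood at -1.61 and its nearest neighbor, low drinker 3, at -2.14, a gap of 0.617 of the whole range of 9 arrays. For Htr2a it stood at -4.85 against -5.82 in low drinker 3, a gap of 0.624 of the range of 8 arrays, with neither well above background. For Htr4 it stood at -3.96 against -5.56 in early high drinker 2, a gap of 0.586 of the range of 7 arrays. The lower quartile of the signal of low drinker 2, 63.2, was the highest of the 12 arrays, and its part in these values was not tested.

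A pair of drinker groups was listed where every array of one lay above the water mean and every array of the other below it, which is stricter than opposite signs of the group means. This held for low and late high drinkers for Htr5a and, without a settled direction, for Htr2a. The share of all probes with such a pair was not computed, so these genes are not set against a background. All 3 low arrays of Htr5a lay above the water mean and all 3 late arrays below it, and late minus low was -0.99, with an adjusted p of 0.0962 in limma over all probes. The low arrays were on slides 1 and 2 and the late arrays on slide 3, so slide and group cannot be told apart here. For Htr2a late minus low came to -0.73, but no low array and 1 late array was well above background, so that this value is no measured difference and its direction is not settled.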

How the results depend on the processing

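The number of receptor probes with an unadjusted p under 0.05 moved with the processing. In alcohol against water it went from 1 to 0 with normexp, quantile normalization or slide as a random block, and when slide was a fixed block the 1 probe was Htr3a in place of Htr1b. In high against low drinkers it went from 1 to 2 with normexp, to 3 with no filter, and to 0 with no scaling, slide as a random block, the methods' t-test or probes averaged per gene. It stayed 1 but for Htr1d with quantile normalization and without low drinker 2, and for Htr4 with slide as a fixed block, where Htr2c was lost. In late against early it went from 2 to 0 with quantile normalization or slide as a fixed block, to 1 with no scaling, the t-test or averaged probes, and to 3 with normexp, which added Htr1d. In the F test it went from 2 to 1 with quantile normalization, no scaling, slide as a random or fixed block, or averaged probes (Htr1d with quantile normalization and Htr4 with the fixed block), and to 3 with normexp, which added Htr1b, and without low drinker 2, which added Htr1d. Without low drinker 3 it stayed 2, with Htr1b in place of Htr5a. With an array left out it ran from 0 to 1, 0 to 2, 1 to 2 and 1 to 4 in these comparisons. The arrays behind this were water 1 in the first, low drinker 1, early high drinkers 1, 2 and 3 and late high drinker 3 (to 2, where Htr2c was lost without low drinker 1 and early high drinkers 1 and 3) and late high drinkers 1 and 2 (to 0) in the second, early high drinker 2 in the third, and low drinker 1 (to 4) and late high drinkers 1, 2 and 3 (to 1) in the F test.

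Of 29 receptor differences, 1 of 610 alternative values passed an adjusted p of 0.05 (Htr5a without early high drinker 3, where late and early arrays share no slide), and none of the 29 did in the values reported. Of 266 values with all arrays, 26 had the opposite sign. With quantile normalization these were, in alcohol against water, Htr1a -0.0942, Htr2a -0.21, Htr5a -0.16 and Htr6 -0.10, in high against low, Htr1a 0.20 and the upstream Htr2c probe 0.0916, and in late against early, Htr3a 0.0439 and Htr6 0.0458. With slide as a fixed block they were Htr3a -0.56, Htr6 -0.05 and Htr7 -0.10, in alcohol against water, then Htr1a 0.0785, Htr1b -0.0216, Htr3a -0.24 and Htr5a 0.15 in high against low. With no scaling they were Htr1a 0.0284 in high against low, then Htr2c 0.12, Htr3a 0.14, Htr6 0.0233 and Htr7 0.0869 in late against early. With normexp they were Htr1d 0.0245 in alcohol against water, Htr1b -0.17 in high against low and Htr1a -0.064 in late against early. Slide as a random block turned Htr3a to -0.0383 in alcohol against water, and probes averaged per gene turned Htr2c to -0.0646 in high against low. The causes were not tested.

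With an array left out, 22 of 344 values changed sign. The ranges were, in alcohol against water, Htr1a -0.0411 to 0.074, Htr5a -0.0655 to 0.14 and Htr6 -0.06 to 0.12, in high against low, Htr1b -0.0373 to 0.30, Htr3a -0.0441 to 0.42, Htr6 -0.53 to 0.0061 and Htr7 -0.36 to 0.0751, and in late against early, Htr1a -0.0264 to 0.11, Htr2c -0.12 to 0.0842, Htr3a -0.21 to 0.11, Htr4 -0.49 to 0.0436 and Htr6 -0.26 to 0.0388. Those that kept their sign but moved by over 1.5 times ran, in alcohol against water, Htr1d -0.25 to -0.0981, Htr2a 0.105 to 0.40, Htr2c -0.17 to -0.0515, Htr3a 0.0502 to 0.21 and Htr7 0.126 to 0.23, in high against low, Htr1a -0.19 to -0.0154, Htr2c 0.0174 to 0.12 and Htr5a -0.68 to -0.345, and in late against early, Htr1b -0.38 to -0.13, Htr1d -0.42 to -0.16 and Htr7 -0.10 to -0.0464. Over all probes, the 24 with an adjusted p under 0.05 in high against low became 364 with normexp, 1 with quantile normalization, 0 with no filter, the replicate block or the t-test, 10 with slide as a random block or averaged probes, 2505 without low drinker 1, 160 without late high drinker 3, 16 without low drinker 3, and 0 to 11 with any 1 of the other 9 arrays left out. In late against early the 0 became 5 with quantile normalization, 1 with no scaling, 26 with slide as a fixed block, 194 without early high drinker 3, 103 without late high drinker 3, 10 without low drinker 1, 2 without water 3 and 1 without late high drinker 2. In the F test the 2 became 1611 without low drinker 1, 160 without early high drinker 3, 148 without late high drinker 3, 11 without low drinker 3, 14 with slide as a fixed block and 10 with averaged probes, and lay between 0 and 4 in all other settings. In alcohol against water the 1789 with an unadjusted p under 0.05 became 1105 with normexp, 546 and 681 with slide as a random and fixed block (4 adjusted with the latter), 1166 with averaged probes, 2919 without low drinker 1, 1174 without water 2 and 1169 without water 3. The 5006 in high against low became 8323 with no filter, 3281 with the t-test, 3056 with averaged probes, 7901 without low drinker 1 and 2742 without low drinker 2. The 4025 in late against early became 1857 with slide as a fixed block, 2417 with averaged probes, 2378 and 2623 without early high drinkers 1 and 2, and 2606 without late high drinker 2. The 4558 in the F test became 2479 with slide as a fixed block, 2826 with averaged probes, 7710 without low drinker 1, and 2887 and 2777 without late high drinkers 1 and 2. The shares of all probes beside the receptor counts move with these.

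Arrays of the same number did not deviate together, with a correlation of deviations between -0.089 and 0.183 over 18 pairs. With the replicate block the probe counts were 1 in alcohol against water, 0 in high against low and 3 in late against early and in the F test, and Htr4 turned to 0.031 in late against early. Leaving 2 arrays in a group assumes that they vary like the others.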
